A study of Mus musculus with 4 samples.

Results

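The dopamine receptor genes Drd1, Drd2, Drd3, Drd4 and Drd5 were followed across the cell types of the mouse cortex. They were picked by gene symbol and are 5 of the 32285 genes in the deposited matrices. The matrices came from single-nucleus RNA sequencing (snRNA-seq) of the right hemicortex of wild-type (WT) C57BL/6J mice. Injections of saline or of risperidone (4 mg/kg, intraperitoneal) were given daily for 21 days from postnatal day (PND) 22, the labels then give 43 days of washout, and the cortex was collected at PND 90, which these intervals do not add up to. Each condition was 1 pool of tissue from 5 male and 5 female animals, run on 2 Chromium lanes, which are called here saline lane 1 and 2 and risperidone lane 1 and 2. Risperidone is an antipsychotic that blocks D2-like dopamine receptors and serotonin receptors. The lanes are technical runs, n is 1 pool per condition, and no test between the conditions could be made. Treatment and pool cannot be told apart in this design. The intervals given with values are at 95% and cover counting error only.

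Dopamine receptors are G protein-coupled receptors of a D1-like family, encoded by Drd1 and Drd5, and a D2-like family, encoded by Drd2, Drd3 and Drd4. D1-like receptors couple to Gs and Golf and raise cyclic AMP, whereas D2-like receptors couple to Gi and Go, lower cyclic AMP and open inwardly rectifying potassium channels. In the striatum Drd1 is the receptor of direct-pathway and Drd2 that of indirect-pathway spiny projection neurons (SPNs), and Drd3 is best known from the ventral striatum and the islands of Calleja. In the cortex the receptors are known from pyramidal neurons of the deep layers and from interneurons, at far lower levels.

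Nuclear RNA is rich in unspliced transcripts, and intronic reads were counted, so that the length of each gene bears on its count. Drd2 lies at chr9:49340627-49408177 on the plus strand of GRCm38 and Drd3 at chr16:43754026-43822932, also plus. They span 67.6 and 68.9 kb, of which introns make up 96.2% and 97.5%. Drd1 (chr13:54051183-54055705, minus strand), Drd4 (chr7:141292006-141296464, plus) and Drd5 (chr5:38319367-38322518, plus) are compact genes of 4.52, 4.46 and 3.15 kb. Drd5 has a single exon and overlaps the antisense gene Gm26560, and Drd3 contains the miRNA gene Gm25996 on its own strand. Levels are compared between genes only per kb of gene for this reason.

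The sequence before a RefSeq start of Drd1, Drd2 and Drd3 is shown because these were the receptor genes with enough unique molecular identifiers (UMIs) to describe, and because Drd2 and Drd3 were lower in the same pool while Drd1 was not. The sequences are from RefSeq on GRCm38.p6, run 5′ to 3′ on the strand of the gene and have each CG dinucleotide in capitals. They cover chr13:54055706-54055908 (minus strand, 203 bases), chr9:49340153-49340359 (plus, 207 bases) and chr16:43761971-43762207 (plus, 237 bases). The Drd2 stretch lies upstream of the annotated gene without reaching its start, and the Drd3 stretch lies inside the annotated gene, before a downstream start.
Drd1: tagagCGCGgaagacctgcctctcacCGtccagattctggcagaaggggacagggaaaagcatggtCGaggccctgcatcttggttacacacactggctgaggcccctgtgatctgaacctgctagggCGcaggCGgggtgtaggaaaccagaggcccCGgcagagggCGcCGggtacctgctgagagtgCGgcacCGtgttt
Drd2: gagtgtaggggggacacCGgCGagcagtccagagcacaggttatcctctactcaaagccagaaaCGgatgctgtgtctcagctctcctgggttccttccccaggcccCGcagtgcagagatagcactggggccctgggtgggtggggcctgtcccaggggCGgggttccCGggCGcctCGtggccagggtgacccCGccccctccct
Drd3: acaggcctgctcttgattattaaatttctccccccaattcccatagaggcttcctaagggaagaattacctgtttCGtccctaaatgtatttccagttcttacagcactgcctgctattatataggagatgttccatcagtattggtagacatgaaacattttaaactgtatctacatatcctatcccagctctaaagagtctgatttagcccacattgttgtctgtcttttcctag
In the full window of 250 bases before the start, Drd1 and Drd2 each held 15 CG, a number reached by 27.3% of 32851 RefSeq windows of that length. CG reads the same on both strands. Drd3 held 1 CG, and 18.8% of windows held as few. The Drd5 window held 35 CG, which 2.97% of windows reached, and the Drd4 window 12.

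The 4 matrices list between 23450 and 29986 nuclei and hold 119736937 and 147909049 UMIs for saline and 168537139 and 203675013 for risperidone. After removal of poor and doublet-like nuclei 96553 remained, with a median of 3041 and 3764 UMIs in saline and 5424 and 7443 in risperidone. The deposited lanes were not cut alike, since the lowest UMI total of a listed nucleus was 1364 and 1630 in saline and 500 and 500 in risperidone, and the mitochondrial share of UMIs was 0.0408% and 0.0395% against 0.0185% and 0.0163%. Pairs of lanes shared between 160 and 221 barcodes. Clusters of nuclei were named as X-like from marker genes, which placed 58453 nuclei in glutamatergic clusters. The share left without a name was 37.8% and 38.8% in saline and 31.5% and 31.3% in risperidone.

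Of the 5 genes, 3 reached 50 UMIs over the kept nuclei. Drd2 was the most counted with 5184 UMIs, followed by Drd1 with 1300 and Drd3 with 761. Drd4 (33 UMIs) and Drd5 (35 UMIs) were at the edge of detection in all lanes. Drd2 stood at 12.9 and 12.8 CPM, the unit of UMI counts scaled to the total of the same nuclei, in saline and at 7.92 and 7.31 CPM in risperidone. Drd3 stood at 2.21 and 2.31 CPM in saline and at 0.963 and 0.754 CPM in risperidone. Drd1 stood at 2.25 and 2.18 CPM in saline and at 2.57 and 2.64 CPM in risperidone. For each of the 3 genes the lanes of a pool lay closer to each other than to the lanes of the other pool. Drd4 had 6 and 4 UMIs in saline and 12 and 11 in risperidone, and Drd5 had 8 and 10 against 11 and 6. The interval of the log2 ratio spanned 0 for both, from −0.56 to 1.80 for Drd4 and from −1.77 to 0.32 for Drd5, so that no difference was detectable at this depth.

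**Figure D1:**
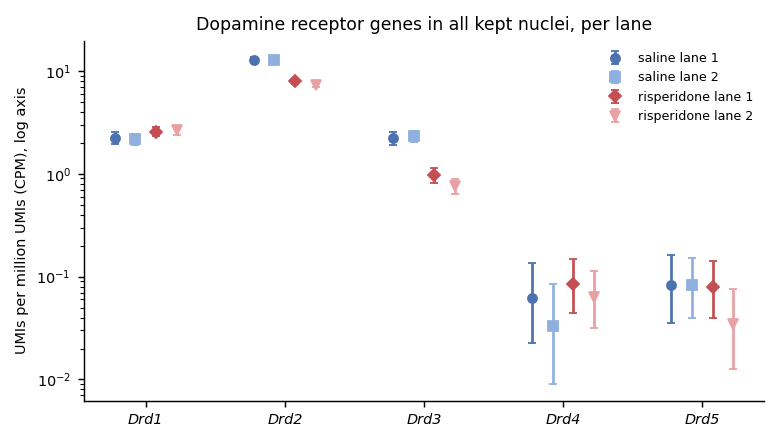
Level of the 5 dopamine receptor genes in all kept nuclei (y axis, CPM, log scale) in each of the 4 lanes, with exact 95% Poisson intervals. Drd2 and Drd3 sit lower in both risperidone lanes than in both saline lanes, Drd1 slightly higher, and Drd4 and Drd5 lie below 0.1 CPM in every lane.

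The receptor genes were concentrated in few nuclei. SPN-like nuclei, named from 8 striatal markers that include Ppp1r1b, Pde10a, Rgs9, Rarb, Adcy5, Scn4b and Meis2, made up 2.38% of all kept nuclei (2297 of 96553) and held 48.6% of the Drd2 UMIs. The same nuclei held 14.7% of the Drd1 and 21.7% of the Drd3 UMIs. The tissue is labelled cortex, and Rgs9, a striatal regulator of G protein signalling, stood between 760 and 844 CPM in the lanes of these nuclei against 19.7 to 27.4 CPM in glutamatergic nuclei. SPN-like nuclei were not spread evenly over the pools, with 837 and 775 in the saline lanes (3.21% and 2.94%) and 347 and 338 in risperidone (1.51% and 1.60%).

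Drd2 was at 245 CPM in SPN-like nuclei (interval 236 to 255). The unnamed cluster 14, with Prlr, Gabrg1, Baiap3 and Glra3 among its leading genes, came next among the sets of nuclei at 26.7 CPM (24.0 to 29.7). Its sub-cluster 14d, led by Ankfn1 and Arhgap6, reached 99.7 CPM in 261 nuclei, and sub-cluster 14j, 21 nuclei with Tacr1, Chat, Slc5a7, Lhx8 and Isl1 among their leading genes, 375 CPM (282 to 490). Chat and Slc5a7 serve acetylcholine synthesis and choline uptake. Among the named classes of cortical neurons and the unnamed glutamatergic clusters Drd2 was highest in Sst-IN-like interneurons at 10.1 CPM (8.42 to 12), then in Vip-IN-like at 6.38 CPM (4.98 to 8.07), in the unnamed glutamatergic cluster led by Spag16, Hs3st2, Dnah14, Rspo2 and Bmp3 at 6.27 CPM (5.39 to 7.25), and in Lamp5-IN-like at 5.23 CPM (3.72 to 7.15). The intervals of the last 3 overlap, so their order is not resolved. Unnamed nuclei of further clusters stood between cluster 14 and the Sst-IN-like nuclei, with cluster 7, led by Prr5l, Rnf220 and Mog, at 17.5 CPM (15 to 20.3), cluster 2 at 14.9 CPM (14 to 15.8) and cluster 4, led by Prdm16 and Grin2c, at 12 CPM (lower bound 9.76). Mog is a myelin gene. The summed level of the 8 striatal markers, most of it Pde10a in glutamatergic nuclei, ran from 2803 to 3021 CPM in the saline lanes of clusters 2, 4 and 7 and from 2726 to 2999 CPM in those of L2/3 IT-like and L4/5 IT-like nuclei, and its part in these Drd2 levels was not tested.

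Non-neuronal nuclei were used as background. Oligodendrocytes and endothelial cells were taken to lack the receptor, and whether the other non-neuronal classes lack it was not tested. Astrocyte-like nuclei held 13 Drd2 UMIs in saline and 2 in risperidone. In the 6 non-neuronal classes together Drd2 was at 2.14 CPM (35 UMIs in 7737 nuclei, interval 1.49 to 2.97), and in oligodendrocyte-like and endothelial-like nuclei alone at 3.32 CPM (14 UMIs, 1.81 to 5.57). The nuclei behind this background differ between the pools, with 282 and 299 oligodendrocyte-like nuclei in saline against 503 and 552 in risperidone and 14 and 15 microglia-like nuclei against 78 and 85. They leave out sub-clusters 7a, which raised 9 oligodendrocyte markers, and 4b, which raised 8 astrocyte markers, because Camk2a, a kinase gene of excitatory neurons, was at 845 and 764 CPM there and naming as non-neuronal required under 650 CPM. Sub-cluster 4b also had 1 astrocyte marker among its leading genes where 2 were required. Sst-IN-like nuclei exceeded the level of the 6 classes 4.73-fold (3.23 to 7.08), Vip-IN-like nuclei 2.99-fold (1.96 to 4.62) and the Spag16 cluster 2.94-fold (2.03 to 4.34), but none of them exceeded the unnamed clusters 2, 4 and 7. This 6-class reference was added after the data were seen. The intervals of Vip-IN-like nuclei and the Spag16 cluster given above overlap that of oligodendrocyte-like and endothelial-like nuclei alone, while that of Sst-IN-like nuclei lies above it. The glutamatergic nuclei as a whole did not exceed the level of the 6 classes, at 1.68 CPM (572 UMIs) and a ratio of 0.784 (0.557 to 1.14), and PV-IN-like nuclei were at 1.95 CPM (1.34 to 2.76). By this measure Drd2 counts of glutamatergic nuclei as a whole were not above the non-neuronal level. The ratio sums pools in which the glutamatergic level lay below the non-neuronal one in saline and above it in risperidone. The share of nuclei with a Drd2 UMI, given below, was higher in glutamatergic nuclei before thinning. Which measure describes the background better was not tested. With classes set by each nucleus' own markers, however, the glutamatergic level was 5.70 CPM. No non-neuronal level was computed under those classes, so whether the glutamatergic level exceeds it there was not tested. A Drd2 UMI was seen in 0.835% of glutamatergic nuclei (0.763 to 0.912) at a median of 5207 UMIs and in 0.427% of non-neuronal nuclei (0.294 to 0.598) at 1882 UMIs. With every nucleus thinned to 2000 UMIs the shares were 0.343% and 0.351%, leaving out 4590 glutamatergic and 4319 non-neuronal nuclei of fewer UMIs. In SPN-like nuclei the share with a Drd2 UMI was 37.1% (35.1 to 39.1) and 29.6% after thinning, which left out 320 nuclei.

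Drd1 was spread over more cell types. The unnamed cluster 21, led by Chst9, Pbx3, Npffr2, Foxp2 and Tshz1, was at 19.7 CPM (15.5 to 24.6) and SPN-like nuclei at 18.6 CPM (16 to 21.4), and these intervals overlap. Per kb of gene, the SPN-like level of Drd1 was 4.11 CPM and that of Drd2 3.63 CPM. L6b-like nuclei, the deepest layer of the cortex, followed at 14.9 CPM (110 UMIs, 12.3 to 18.0), and claustrum or L6 Car3-like nuclei at 8.57 CPM (56 UMIs, 6.47 to 11.1). These cortical levels were 9.41-fold (7.60 to 11.6) and 5.39-fold (4.02 to 7.11) that of all glutamatergic nuclei, of which they are a part. With classes set by each nucleus' own markers the L6b-like level was 5.51 CPM and the glutamatergic level 1.93 CPM. PV-IN-like nuclei were at 4.22 CPM (3.28 to 5.33), 3.45-fold the non-neuronal level of 1.22 CPM (ratio 2.07 to 6.00). L2/3 IT-like, L4/5 IT-like and L5 ET-like nuclei were at 0.516, 0.591 and 0.407 CPM, not above the non-neuronal level. The glutamatergic nuclei as a whole, at 1.59 CPM, could not be told from it, with a ratio of 1.30 (0.834 to 2.15). A Drd1 UMI was seen in 7.69% of L6b-like nuclei (6.30 to 9.26) at a median of 4788 UMIs and in 0.258% of non-neuronal nuclei (0.158 to 0.399). At 2000 UMIs per nucleus the shares were 3.35% (2.40 to 4.53) and 0.176% (0.0644 to 0.382), with 119 L6b-like nuclei left out.

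Drd3 was counted mostly in SPN-like nuclei and in clusters 14 and 21. Among the sets of nuclei, which leave out a small sub-cluster of cluster 15 given below, cluster 21 was highest at 44.5 CPM (38.1 to 51.6) and held 22.9% of the Drd3 UMIs in 1.06% of the nuclei, followed by SPN-like nuclei at 16 CPM (13.7 to 18.7) and cluster 14 at 10.4 CPM (8.69 to 12.3). That order is over both pools. SPN-like nuclei had 149 Drd3 UMIs in saline and 16 in risperidone (log2 ratio −2.92), and cluster 14 had 51 and 83 (−0.04). In risperidone cluster 14 thus stood above SPN-like nuclei. Glutamatergic nuclei stood at 0.187 CPM (64 UMIs), against 0.244 CPM (4 UMIs, 0.0665 to 0.625) in the non-neuronal classes. Oligodendrocyte-like and endothelial-like nuclei held 0 Drd3 UMIs, which allows a level of up to 0.711 CPM. The 12 UMIs of L2/3 IT-like nuclei were the most Drd3 counted in any named class of cortical neurons.

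Drd4, a D2-like receptor, had 21 of its 33 UMIs in glutamatergic nuclei, 12 of them in L2/3 IT-like nuclei at 0.119 CPM (0.0615 to 0.208). Drd5, the D1-like partner of Drd1, had 20 of its 35 UMIs in glutamatergic nuclei against 0 in SPN-like nuclei, which allows a level of up to 0.292 CPM. A small glutamatergic cluster led by Stac and Ndst4 held 4 of them at 0.886 CPM (0.241 to 2.27). Glutamatergic nuclei are 60.5% of all kept nuclei, close to their share of the UMIs of both genes.

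**Figure D2:**
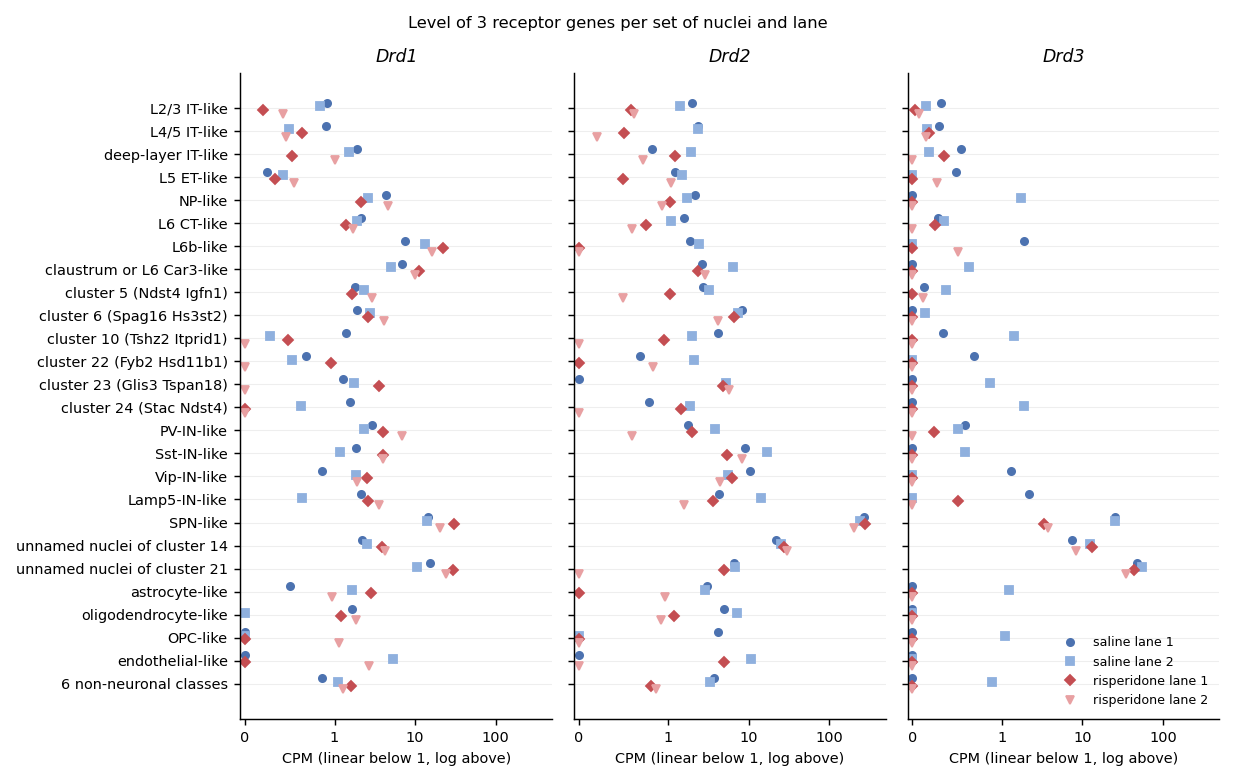
Level of Drd1, Drd2 and Drd3 (x axis, CPM, linear below 1 and log above) in named classes, unnamed glutamatergic clusters and clusters 14 and 21, with 1 point per lane. Drd2 peaks in SPN-like nuclei (204 to 280 CPM over the lanes), Drd3 in cluster 21 (34.6 to 54.1 CPM), and Drd1 in SPN-like, cluster 21 and L6b-like nuclei, while the 6 non-neuronal classes as a whole lie at or below 3.70 CPM for all 3 genes.

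Within SPN-like nuclei the receptors divided between direct and indirect nuclei, which were told apart by other genes. A nucleus was called direct or indirect by which list held more UMIs, with Isl1, Ebf1, Tac1, Pdyn, Eya1, Chrm4, Slc35d3 and Sfxn1 for the direct and Adora2a, Penk, Gpr6, Sp9, Gpr52, Oprd1 and Grik3 for the indirect pathway. Of 760 direct nuclei 15.8% (13.3 to 18.6) held Drd1 alone, 2.50% Drd2 alone and 0.132% both. Of 1044 indirect nuclei 70.2% (67.3 to 73.0) held Drd2 alone, 1.05% Drd1 alone and 0.383% both. The pools differed in these shares and in depth, with Drd1 alone in 9.66% of direct nuclei (7.16 to 12.7) at a median of 3610 UMIs for saline and in 26.1% (21 to 31.6) at 6151 UMIs for risperidone. For Drd2 alone the shares of indirect nuclei were 64.9% at 3277 UMIs and 80.7% at 5726 UMIs. The Drd1 level was 37.1 CPM in direct and 3.29 CPM in indirect nuclei, a ratio of 11.3 (6.71 to 20.3), and the Drd2 level 470 CPM in indirect and 7.78 CPM in direct nuclei, a ratio of 60.4 (42.2 to 89.7). The division held in each pool, with Drd1 ratios of 6.96 (3.49 to 15.4) in saline and 17.8 (7.89 to 49.9) in risperidone and Drd2 ratios of 42.4 (27.9 to 67.9) and 109 (55.1 to 253). Drd3 was less divided, with a ratio of direct to indirect nuclei of 1.69 (1.13 to 2.56) over both pools. It was 1.56 (1.01 to 2.44) in saline and 4.65 (1.26 to 25.7) in risperidone, the latter on 12 and 3 UMIs. With at least 3 UMIs more of 1 list required, Drd1 alone was in 22.1% of 348 direct nuclei and Drd2 alone in 82.1% of 577 indirect nuclei. The clustering had left out the 5 receptor genes, and the division into direct and indirect nuclei used none of them.

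The sub-clusters of cluster 15, which holds the SPN-like nuclei, showed the same division and placed Drd3 apart. Sub-cluster 15c, with Adora2a and Penk among its leading genes, had Drd2 at 685 CPM (647 to 724), and the lanes stood at 672 and 715 CPM in saline and 748 and 606 CPM in risperidone. Sub-cluster 15a had Drd1 at 41.2 CPM (33.8 to 49.7), at 27.2 and 27.3 CPM in saline and 73.3 and 42.0 CPM in risperidone. Drd2 was 34.5-fold (26.2 to 46.5) higher in sub-cluster 15c than in 15a, and Drd1 9.08-fold (4.45 to 21.6) higher in 15a than in 15c. Per kb of gene and over both pools these peaks were at 9.10 CPM for Drd1 and 10.1 CPM for Drd2. Since the Drd1 level of 15a differed between the pools, this nearness holds for the summed lanes only. Whether counts rise in proportion to gene length was not tested. Within cluster 15, and above cluster 21 too, Drd3 was highest in sub-cluster 15g, a set of 39 nuclei led by Drd3, Gpr149, Stac and Syt6, at 544 CPM (54 UMIs, 409 to 710), and next in sub-cluster 15d, with Clic6 and Strip2 among its leading genes, at 64.0 CPM (51.9 to 78.1). The nuclei of sub-cluster 15g came from the saline lanes alone, 20 and 19, with 0 and 0 in risperidone, and it was left unnamed because its 10 leading genes held no striatal marker and 1 marker of another class. Sub-cluster 15d held 160 and 143 nuclei from saline and 11 and 11 from risperidone. In proportion, sub-clusters 15d and 15g are the part of cluster 15 in which the pools differed most in nuclei, and they have the highest Drd3 levels. In number, sub-cluster 15b differed as well, with 205 and 179 nuclei in saline and 49 and 75 in risperidone.

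**Figure D3:**
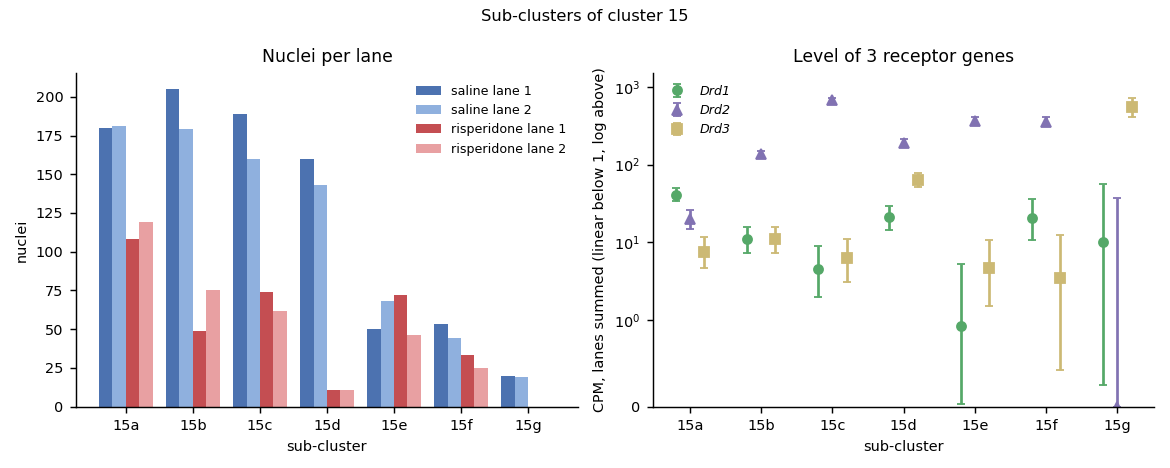
Left, nuclei of each sub-cluster of cluster 15 in the 4 lanes (y axis, number of nuclei). Right, level of Drd1, Drd2 and Drd3 per sub-cluster over all lanes (y axis, CPM, linear below 1 and log above) with exact 95% Poisson intervals. Drd1 is highest in 15a, Drd2 in 15c and Drd3 in 15g, and sub-clusters 15d and 15g hold few or no risperidone nuclei.

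The comparison of the pools asked whether the receptor genes differ in adult cortex after adolescent risperidone. Differences are given as log2 of the risperidone over the saline level after edgeR's TMM scaling, and one counts as past the size rule when it is at least 0.5 with both risperidone lanes beyond both saline lanes. Over all kept nuclei Drd2 was lower by a log2 ratio of −0.88 (−0.96 to −0.80) and Drd3 by −1.54 (−1.76 to −1.32), and both passed the rule. Drd1 was at 0.12 (−0.05 to 0.28), with higher lanes in risperidone but short of the rule. Of the 20347 genes with at least 50 UMIs, 9.61% passed it as lower and 16% as higher in risperidone, beside 2 of 3 receptor genes lower. The receptor genes and the rule were chosen with earlier results of these data known, so these shares give no independent support. Drd2 and Drd3 also share the SPN-like nuclei, which made up 3.21% and 2.94% in saline and 1.51% and 1.60% in risperidone. In a sum over all nuclei, fewer nuclei of a type and less RNA per nucleus cannot be told apart. After subtraction of each lane's level in oligodendrocyte-like and endothelial-like nuclei the Drd2 value was −0.17, short of the rule, but that level rests on 11 Drd2 UMIs in saline and 3 in risperidone. With the level of the 6 non-neuronal classes in its place (28 and 7 UMIs), a setting added after the data were seen, it was −0.59 and past the rule, so that the call depends on the reference. Without clusters 14, 15 and 21 the values were −0.79 (−0.91 to −0.67) for Drd2 and −1.30 (−1.70 to −0.92) for Drd3, a comparison added after the data were seen.

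In SPN-like nuclei alone the Drd2 level stood at 272 and 237 CPM in saline and 280 and 204 CPM in risperidone. The lanes of the pools overlap, and the log2 ratio of −0.19 (−0.31 to −0.08) did not pass the rule. With classes set by each nucleus' own markers it was 0.51, in the other direction, at a level of 120 CPM. Drd1 stood at 14.6 and 14 CPM in saline and 30.1 and 20.3 CPM in risperidone, a log2 ratio of 0.68 (0.26 to 1.11) that passed it as higher. The make-up of the class differed between the pools, with 476 direct, 692 indirect and 444 undecided nuclei in saline against 284, 352 and 49 in risperidone. Drd3 stood at 25.4 and 25.7 CPM in saline and 3.34 and 3.76 CPM in risperidone, a log2 ratio of −2.92 (−3.76 to −2.17) that passed it as lower. Other markers moved in these nuclei too, with the 9 oligodendrocyte markers summing to 243 and 204 CPM in saline and 114 and 122 CPM in risperidone (9 of 9 lower, none at 0) and the 8 striatal markers to 10228 and 9946 against 8711 and 8483 CPM (4 lower, 3 higher). Their part was not tested. Of all genes with 50 UMIs in these nuclei, 8.07% passed as higher and 11.4% as lower. The Drd3 value rests in part on sub-cluster 15d and was −1.86 (−2.79 to −1.01) without it. The Drd1 value was 0.44, under the rule, without risperidone lane 1. In direct nuclei, Drd1 stood at 27.3 and 26.4 CPM in saline and 61.7 and 39.5 CPM in risperidone. In indirect nuclei, Drd2 stood at 530 and 458 CPM in saline and 478 and 421 CPM in risperidone, with overlapping lanes.

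In glutamatergic nuclei Drd2 stood at 2.52 and 2.54 CPM in saline and 1.23 and 0.916 CPM in risperidone, a log2 ratio of −1.35 (−1.60 to −1.10) that was −0.51 with classes set by each nucleus' own markers. Drd3 stood at 0.316 and 0.324 against 0.0912 and 0.0907 CPM (−1.90, −2.78 to −1.09), and Drd1 at 1.61 and 1.68 against 1.46 and 1.61 CPM (−0.19, −0.44 to 0.07). Drd2 and Drd3 passed the rule as lower, where 12.3% of all genes did and 16.2% passed as higher. With the pools summed, neither gene was above the non-neuronal level here, and non-neuronal Drd3 went from 4 UMIs in saline to 0 in risperidone. In non-neuronal nuclei, which set the background, Drd2 moved the same way, at 3.70 and 3.32 CPM in saline and 0.810 and 0.860 CPM in risperidone. Glutamatergic Drd2 was thus below the non-neuronal level in both saline lanes and above it in both risperidone lanes. Subtracting each lane's Drd2 level in oligodendrocyte-like and endothelial-like nuclei left less than 0 Drd2 UMIs in glutamatergic nuclei of either pool. The level of the 6 non-neuronal classes left −137.6 Drd2 UMIs in saline and 43.2 in risperidone, and −25.1 and 18.0 for Drd3. Since less than 0 was left in saline, none of these subtractions gave a fold change above background. The summed level of the 8 striatal markers in glutamatergic nuclei was 2716 and 2649 CPM in saline and 1977 and 1996 CPM in risperidone, with 6 of 8 lower in both risperidone lanes, 2 higher and none at 0. Pde10a alone made up most of it, at 2286 and 2231 CPM in saline and 1661 and 1676 CPM in risperidone. The 9 oligodendrocyte markers summed to 220 and 211 against 139 and 131 CPM (9 of 9 lower) and the 8 astrocyte markers to 613 and 609 against 568 and 569 CPM (7 of 8 lower). The part of these markers in the Drd2 and Drd3 differences was not tested.

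Interneurons and deep-layer neurons gave smaller counts. In PV-IN-like nuclei Drd1 stood at 2.94 and 2.31 CPM in saline and 3.95 and 6.77 CPM in risperidone, a log2 ratio of 1.00 (0.21 to 1.84) that passed as higher, as did 11.8% of all genes, with 8.57% lower. Without risperidone lane 2 it was 0.47, under the rule. The Drd2 lanes of PV-IN-like nuclei overlapped (1.76 and 3.85 against 1.98 and 0.598 CPM) on 32 UMIs. In Sst-IN-like nuclei Drd2 stood at 8.93 and 16.9 CPM in saline and 5.37 and 8.32 CPM in risperidone, a log2 ratio of −1.05 (−1.60 to −0.50) that passed as lower, as did 10.3% of all genes, with 9.66% higher. Without saline lane 2 it was −0.39, under the rule, and after subtraction of the oligodendrocyte-like and endothelial-like level it was −0.42, also under it, at a level of 6.40 CPM. That level again rests on 11 and 3 Drd2 UMIs. With the 6 non-neuronal classes as reference it was −0.80, with overlapping lanes (5.23 and 13.6 against 4.56 and 7.46 CPM). The striatal markers summed to 2375 and 2343 against 1758 and 1717 CPM in PV-IN-like and to 2496 and 2605 against 1800 and 1695 CPM in Sst-IN-like nuclei. The oligodendrocyte markers summed to 185 and 162 against 94.6 and 72.5 CPM in PV-IN-like and to 186 and 191 against 81.9 and 85.8 CPM in Sst-IN-like nuclei (8 of 9 lower in both), and the astrocyte markers to 217 and 196 against 153 and 139 CPM (5 of 8 lower) and to 188 and 234 against 132 and 108 CPM (6 of 8 lower). The part of these markers was not tested. Drd1 in L6b-like nuclei stood at 7.47 and 13.2 CPM in saline and 22.4 and 16.3 CPM in risperidone (0.78, 0.20 to 1.38), and in claustrum or L6 Car3-like nuclei at 6.95 and 5.08 against 11.1 and 10.0 CPM (0.77, −0.10 to 1.70). Both passed as higher, where 9.83% and 9% of all genes did. The L6b-like value was 1.35 without saline lane 2, and with classes set by each nucleus' own markers it was 0.19 at a level of 5.51 CPM. In L2/3 IT-like nuclei Drd1 went the other way, from 0.915 and 0.835 CPM to 0.206 and 0.429 CPM, and passed as lower on 52 UMIs at a level below the non-neuronal one. The oligodendrocyte markers of L6b-like nuclei summed to 177 and 183 against 78.8 and 60.6 CPM, and the astrocyte markers to 1280 and 1327 against 1407 and 1496 CPM. In claustrum or L6 Car3-like nuclei the oligodendrocyte sums overlapped (297 and 233 against 256 and 182 CPM). The part of these markers was not tested.

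The nuclei were divided into 37 sets that do not overlap, the named classes and the unnamed nuclei of the other clusters, and a gene was compared in each set where it had 50 UMIs. The sets leave out sub-cluster 15g, whose 54 Drd3 UMIs came from saline alone. Drd2 had 50 UMIs in 11 sets and passed the size rule as lower in 8 of them. Of the 8, L2/3 IT-like and L4/5 IT-like nuclei had Drd2 levels of 0.962 and 1.11 CPM, below the non-neuronal one. The cluster led by Ndst4 and Igfn1, with 55 and 11 UMIs, was not above it either. Non-neuronal Drd2 itself went from 28 to 7 UMIs (−2.23, −3.67 to −1.01). Drd3 had 50 UMIs in 4 sets and passed as lower in 3. Drd1 had them in 10 sets and passed as higher in 6 and as lower in 1. The log2 ratios ran from −2.85 to 0.18 for Drd2, from −2.92 to −0.04 for Drd3 and from −1.46 to 1.00 for Drd1. Drd1 also passed as higher in clusters 2 and 21, where 14.9% and 7.35% of all genes did. The make-up of cluster 2 differed between the pools. Sub-cluster 2b held 516 and 539 nuclei in saline and 320 and 280 in risperidone. Sub-cluster 2d, with Syt2 and Btbd11 among its leading genes, held 221 and 140 against 329 and 346. The oligodendrocyte markers of cluster 2 summed to 1626 and 1629 against 993 and 953 CPM. The part of these differences was not tested. Lower calls of Drd1 and Drd2 in L2/3 IT-like nuclei (10.8% of all genes), of Drd2 in L4/5 IT-like nuclei (9.65%), in the glutamatergic clusters led by Ndst4 and Igfn1 (12.4%) and by Spag16 and Hs3st2 (9.75%) and in clusters 2, 4 and 7 (10.9%, 8.29% and 10.1%), and of Drd3 in clusters 2 and 21 (10.5% in the latter) make up the rest beside those given above. In the sets listed here for Drd2 the summed striatal, oligodendrocyte and astrocyte markers were also lower in both risperidone lanes. Their part was not tested. In cluster 14, where Drd2 was second highest among the sets, it stood at 21.6 and 25.3 CPM in saline and 27.4 and 29.7 CPM in risperidone, a log2 ratio of 0.18 (−0.15 to 0.51). Over the sub-clusters of clusters 14 and 15 with 50 Drd2 UMIs and a ratio, its log2 ratio ran from −2.60 in 15a (44 and 8 UMIs) and −1.28 in 15d to 0.63 in 15e and 0.67 in 14d (27 and 124 UMIs). Drd3 in cluster 21 stood at 47.2 and 54.1 against 43.3 and 34.6 CPM (−0.53, −0.98 to −0.08).

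**Figure D4:**
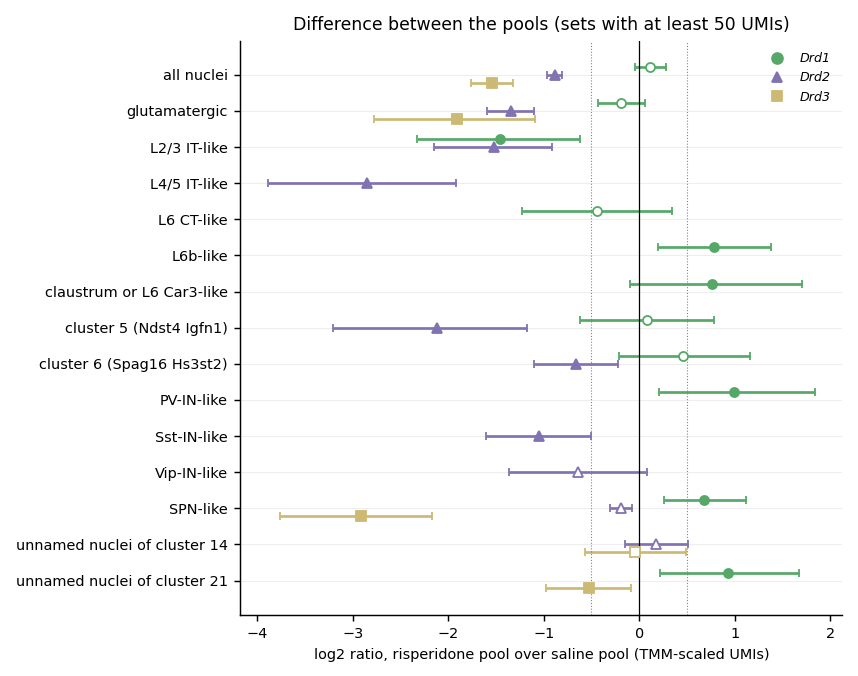
Log2 ratio of risperidone to saline (x axis, TMM-scaled UMIs) for Drd1, Drd2 and Drd3 in sets of nuclei with at least 50 UMIs of the gene, with exact 95% intervals for counting error. Clusters 2, 4 and 7 are not drawn. Filled points passed the size rule, open points did not, and dotted lines mark 0.5 in either direction. Drd3 is farthest from 0 in SPN-like nuclei (−2.92), where Drd2 is close to 0 (−0.19).

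Nuclei were also called female when they held Xist but none of the Y-chromosomal Kdm5d, Eif2s3y, Uty and Ddx3y, and male in the opposite case, which left out nuclei with both kinds of UMI (13.7% to 18.9% per lane) or neither (10.4% to 30.5%). Female calls numbered 9722 and 10313 in saline and 11727 and 10603 in risperidone. Male calls numbered 4831 and 5009 in saline and 4503 and 4319 in risperidone, though each pool held as many male as female animals. Whether the male calls stand for all male nuclei was not tested. Among nuclei called female, cluster 15 made up 2.10% and 2.08% in saline and 2.33% and 2.49% in risperidone. Among nuclei called male it made up 4.41% and 4.11% in saline (213 and 206 nuclei) and 0.155% and 0.440% in risperidone (7 and 19 nuclei). Nuclei without a call numbered 11491 and 11063 in saline and 6795 and 6177 in risperidone. They held 440 and 373 nuclei of cluster 15 in saline (3.83% and 3.37%) and 67 and 55 in risperidone (0.986% and 0.890%). That was more of the difference in number between the pools than the male calls held. Drd2 in the called nuclei stood at 8.66 and 10.1 CPM in saline and 10.1 and 8.88 CPM in risperidone for female calls. For male calls it was at 17.0 and 14.1 CPM in saline and 2.10 and 2.21 CPM in risperidone, and for nuclei without a call at 14.51 and 14.59 against 8.18 and 8.16 CPM. Over all called nuclei, the log2 ratio of Drd2 was −0.13 in female and −2.90 in male nuclei, that of Drd3 −1.02 and −2.63, and that of Drd1 0.51 and −0.34. Within glutamatergic nuclei the Drd2 ratio was −1.32 in female and −1.46 in male calls, and within Sst-IN-like nuclei −1.20 and −1.65. Within SPN-like nuclei it was 0.17 and −1.18, the latter on 3 and 23 UMIs in the risperidone lanes. Sub-cluster 15d held 28 and 42 female nuclei in saline against 11 and 8 in risperidone, and 51 and 38 male nuclei against 0 and 0. Within the female calls Drd1 stood at 1.99 and 1.74 CPM in saline and 2.82 and 2.89 CPM in risperidone, with both risperidone lanes higher, and within the male calls at 2.39 and 1.86 against 1.61 and 1.83 CPM, with both lower.

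**Figure D5:**
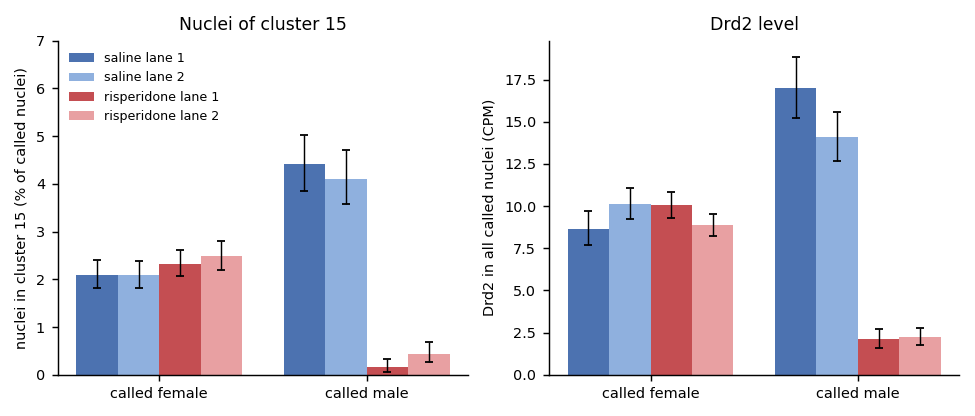
Left, nuclei of cluster 15 as a percentage of the nuclei called female or male in each lane, with exact 95% binomial intervals. Right, Drd2 level in the same nuclei (CPM) with exact 95% Poisson intervals. Both are lower in risperidone among male calls (at 0.155% and 0.440%, and at 2.10 and 2.21 CPM), and the female calls of the pools lie close together.

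The genes through which the receptors act were taken as 4 lists. In the list of D1-like coupling, 3 of 13 genes were lower and 0 higher over all nuclei, where 9.61% of all genes were lower and 16% higher. These were Gng7, a G protein gamma subunit (log2 ratio −0.87), Adcy5, the main striatal adenylyl cyclase (−0.80), and Pde10a, a striatal phosphodiesterase (−0.58). The median of the list was −0.17, against 0.00 over all genes counted. Gnal, which encodes Golf, was at −0.42 and Ppp1r1b, the DARPP-32 gene, at −0.15, both short of the rule. In SPN-like nuclei Gng7 (−0.51) and Adcy5 (−0.59) were again lower and Caly, which encodes a D1 receptor-interacting protein, was higher (0.78), 2 and 1 of 13 genes against 11.4% and 8.07% of all genes. Gng7, Adcy5 and Pde10a were the lower genes of the list in glutamatergic nuclei (3 of 13, against 12.3% of all genes) and in PV-IN-like nuclei (3 of 12, against 8.57%). In Sst-IN-like nuclei they were Gng7, Prkaca, Pde1b and Pde10a (4 of 12, against 10.3%). Adcy5 and Pde10a are also among the striatal markers given above.

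In the list of D2-like coupling, 2 of 16 genes were lower and 0 higher over all nuclei, with a median of −0.13, a share near the 9.61% of all genes that were lower. Gnaz, an inhibitory G protein alpha subunit, was at −0.54 and Rgs9 at −0.51. The potassium channel genes through which D2-like receptors act stayed short of the rule, with Kcnj3 at 0.10, Kcnj6 at −0.25 and Kcnj9 at −0.19. In Sst-IN-like nuclei Gnaz (−0.60), Kcnj6 (−0.57) and Ncs1 (−0.61), a calcium sensor that binds the D2 receptor, were lower, 3 of 15 genes against 10.3% of all. In SPN-like nuclei Gnai2 (−0.99 on 69 UMIs) and Gnaz (−0.62) were lower, 2 of 14 against 11.4%. The list had 1 lower gene of 16 in glutamatergic nuclei (Gnaz) and 1 of 15 in PV-IN-like nuclei (Rgs9), no more than the shares of all genes there. Of the receptor kinases and arrestins 0 of 6 genes found in the matrices passed the rule over all nuclei, with a median of −0.36, where 9.61% of all genes were lower. In glutamatergic nuclei Grk3 (−0.55) was lower, 1 of 6 against 12.3% of all genes, a share near the background.

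Of the genes for dopamine synthesis, transport and breakdown, 5 of 7 had 50 UMIs. Slc18a2, the vesicular monoamine transporter, was at 0.832 and 0.863 CPM in saline and at 3.05 and 2.90 CPM in risperidone. Its log2 ratio was 1.68 (1.45 to 1.92), and it was the single gene of the 4 lists that was higher over all nuclei, 1 of 5 in its own list against 16% of all genes. It was higher in glutamatergic nuclei too, at 0.918 and 0.798 against 2.99 and 2.73 CPM (1.66, 1.37 to 1.95), and in PV-IN-like nuclei (1.99, 0.89 to 3.30). Ddc, the enzyme that makes dopamine from L-DOPA, was lower in glutamatergic nuclei (−1.60, −2.14 to −1.07), as was Maob, a monoamine oxidase (−0.76, −0.98 to −0.54). The list thus had 1 gene higher and 2 lower of 5 in glutamatergic nuclei, against 16.2% and 12.3% of all genes, and 1 higher of 3 in PV-IN-like nuclei, against 11.8%. Th (47 UMIs) and Slc6a3 (14 UMIs), the markers of dopamine neurons, were too low to count.

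The genes whose level followed each receptor most closely were sought over 30 clusters of at least 200 nuclei, by the Pearson correlation of log2(CPM + 1) among 11482 genes. For Drd2 they were Isl1 (r = 0.84), Sh3rf2 (0.83), Mhrt (0.83), Rgs9 (0.81) and Nexn (0.81), which all peaked in cluster 15 as Drd2 did. Isl1 is in the direct-pathway list above, and cluster 15 entered as a whole, with direct and indirect nuclei together. For Drd3 they were Clic6 (0.92), Six3 (0.90), Ccdc187 (0.89), Gm31251 (0.88) and Penk (0.87), each highest in cluster 15 or 21. For Drd1 they were Gm34557 (0.89), Htr1d (0.78), Gnal (0.71), Glra2 (0.68) and Oprm1 (0.67). Gm34557 lies 116395 bases from Drd1 on the same strand and peaked in cluster 18, the L6b-like nuclei, at 13.5 CPM. Among the receptors Drd3 correlated with Drd1 at 0.64 and with Drd2 at 0.60, and Drd1 with Drd2 at 0.45. The clusters share lanes, and the values are a description of these libraries.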

How the data were processed

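Nuclei from 2 pools of right hemicortex, saline and risperidone, were profiled in 2 lanes each. Per the labels and the study's methods, the authors aligned reads with Cell Ranger 8.0.1 to mm10 with introns included and deposited filtered matrices of UMI counts per gene and nucleus. The labels call the lanes technical replicates of 1 pool. The receptor genes, the marker and pathway lists and the size rule were chosen with earlier results of these data known.

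From the counts, barcodes with fewer than 500 genes or over 5% mitochondrial UMIs were dropped. Doublet-like nuclei were then removed per lane from simulated doublets at a rate of 0.4% per 1000 nuclei, which took out between 2184 and 3596 per lane. The rest were scaled to 10000 UMIs, reduced to 2000 variable genes without the receptor genes and 30 principal components, and clustered by Louvain (20 neighbours, resolution 0.5). Of the clusters, 13 were clustered again, and each sub-cluster has a letter after the number of its cluster. Some marker and leading genes of clusters are not reported here by name. Clusters were named from at least 3 raised markers and a score of 1.5. A non-neuronal name also required Gad2 under 60 CPM, Camk2a under 650 CPM, a score at least 1 above the next non-neuronal class and 2 own markers among the 10 leading genes. Glutamatergic clusters needed Slc17a7 of at least 70 and Gad2 under 30 CPM, and interneuron-like and SPN-like ones Gad2 of at least 60 CPM. These thresholds were set after marker levels were seen. CPM is UMIs of a gene divided by all UMIs of the same nuclei. Poisson intervals for levels, conditional binomial intervals for ratios and Clopper-Pearson intervals for shares are exact. Pool ratios were scaled with edgeR 4.0.16 (TMM). Genes need 50 UMIs in a set to be compared. No p-value was computed, since each condition is 1 pool. Named genes were the receptors, the pathway genes past the rule with a few channel and coupling genes beside them (Gnal, Ppp1r1b, Kcnj3, Kcnj6 and Kcnj9, chosen after their values were seen), and the 5 genes most like each receptor. Gene positions were from GENCODE vM21, which holds 99.6% of the gene identifiers, and upstream sequences from RefSeq. Alternatives were other scalings, lanes left out, other filters, classes and thresholds, thinning to 2000 UMIs, background subtraction and nuclei called by sex. Python 3.11.15, scipy 1.17.1, R 4.3.3 and DESeq2 1.42.0 (size factors) were used.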

Additional observations from a re-analysis of the deposited data

Results flagged for a closer look

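The nuclei removed by the filters, which entered only the setting over all listed nuclei, held the receptor genes above the limit that a count of 0 allows (0.0277 CPM). Drd2 was at 12.6 CPM in them, Drd1 at 2.28 CPM and Drd3 at 1.63 CPM. Drd2 stood there at 20.8 and 18.2 CPM in saline and 7.90 and 6.30 CPM in risperidone, lower in both risperidone lanes as in the kept nuclei.

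The pool difference of Drd1 had opposite signs in some cell classes, with both risperidone lanes of a class on the same side of both saline lanes. The lower side was L2/3 IT-like nuclei, where the Drd1 level (0.516 CPM) was below the non-neuronal 1.22 CPM, and L6 CT-like nuclei, whose −0.44 (−1.23 to 0.34) did not pass the size rule. The lanes overlapped in the glutamatergic clusters led by Ndst4 and Igfn1 (0.08) and by Spag16 and Hs3st2 (0.46), and the L6b-like value was 0.19 with classes from each nucleus' own markers. The log2 ratio in L6b-like nuclei exceeded that in L2/3 IT-like nuclei by 2.24 and that in L6 CT-like nuclei by 1.22. For claustrum or L6 Car3-like nuclei these differences were 2.23 and 1.21, for PV-IN-like nuclei 2.46 and 1.44, and for SPN-like nuclei 2.15 and 1.12. Over all nuclei the log2 ratio of Drd1 in nuclei called female exceeded that in nuclei called male by 0.85. None of these differences was tested, since each condition is 1 pool.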

How the results depend on the processing

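No paired analysis was possible because the lanes of each condition are technical runs of 1 pool and no test was made. Alternatives for the pool ratios of Drd1, Drd2 and Drd3 in all, glutamatergic and SPN-like nuclei were sorted by the counting-error interval of the reported value. Of these, 88 stayed inside that interval and 30 moved out of it, and none of them turned the direction of a difference past the size rule. Subtractions that gave no ratio in glutamatergic nuclei are not in these counts, and there the net UMIs were higher in risperidone. With the 6 non-neuronal classes they were −137.6 in saline and 43.2 in risperidone for Drd2, and −25.1 and 18.0 for Drd3. With oligodendrocyte-like and endothelial-like nuclei they were −537.7 and −34.5 for Drd2. Staying inside a wide interval does not mean a small shift. SPN-like Drd1 is among the 88 at 0.44 without risperidone lane 1, against 0.68 reported and under the rule. Glutamatergic Drd3 is too, at −1.35 with classes from each nucleus' own markers, against −1.90. The 88 include 3 subtractions for Drd3 that could not change its value, since the reference nuclei held 0 Drd3 UMIs. Over all nuclei, female and male calls gave 0.51 and −0.34 for Drd1, −0.13 and −2.90 for Drd2 and −1.02 and −2.63 for Drd3. Drd2 was −0.76 with plain CPM, −1.02 over all listed nuclei and −0.79 without clusters 14, 15 and 21, where Drd3 was −1.30. After subtraction of the oligodendrocyte-like and endothelial-like level, Drd1 was −0.10 and Drd2 −0.17. With the 6 non-neuronal classes as reference, a setting added after the data were seen, Drd1, Drd2 and Drd3 were −0.17, −0.59 and −1.19. Glutamatergic Drd1 was −2.73 in that setting, on net levels of 0.759 and 0.576 CPM in saline and −0.159 and 0.316 CPM in risperidone. With a risperidone lane below 0, the size of that ratio is not resolved. In glutamatergic nuclei Drd1 was 0.14 in female and −0.54 in male calls, and Drd2 was −0.51 with classes from each nucleus' own markers. In SPN-like nuclei under those classes Drd1 was 1.46, Drd2 0.51 and Drd3 −2.04, and their levels fell to 9.19, 120 and 8.05 CPM. SPN-like Drd1 was 1.69 in male calls, on 6 and 7 UMIs in the saline lanes and 0 and 5 in risperidone, so the lanes overlapped. SPN-like Drd2 was 0.17 in female and −1.18 in male calls, the latter on 3 and 23 UMIs in the risperidone lanes. It was −0.058 after thinning, and between −0.385 and 0.034 with a lane left out. SPN-like Drd3 was −1.86 without sub-cluster 15d. The causes were not tested. Male SPN-like nuclei gave no Drd3 ratio, and subtraction left no Drd1 or Drd2 ratio in glutamatergic nuclei, nor, with the 6 classes, a Drd2 or Drd3 ratio. With a threshold of 1.0 in place of 0.5, 1625 genes rather than 3264 were higher and 274 rather than 1955 lower over all nuclei, and with a mean of at least 10 CPM 213 and 568. In SPN-like nuclei, 180 rather than 756 genes were higher and 197 rather than 1064 lower at 1.0, and 1325 higher with 20 UMIs. The counts for glutamatergic nuclei fell from 3019 higher and 2296 lower to 1449 and 700 at 1.0 and to 296 and 525 at 10 CPM. For PV-IN-like nuclei they went from 1290 and 938 to 380 and 175, and for Sst-IN-like nuclei from 975 and 1043 to 267 and 207, at 1.0. Depth limits Drd4 and Drd5 in every class.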
